A study of Mus musculus with 6 samples.

Results

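The genes described here are the cadherins of the mouse, chosen by symbol: protein-coding genes named Cdh with a number, Pcdh with a number, Dsc or Dsg with a number, and Fat1 to Fat4. The clustered Pcdha, Pcdhb and Pcdhg genes were left out. The rule gave 48 genes. Open chromatin was placed at 40 of them, as 248 regions of the 62802 that lay in or within 50 kb of a protein-coding gene and of 75738 in all. In every library the epidermal cadherins, Cdh1 (E-cadherin) and Cdh3 (P-cadherin), and the desmosomal cadherins had open regions. Cdh4 (R-cadherin) had 12 and 11 open regions in the interfollicular libraries against 3 and 3 in the hair follicle libraries. Pcdh7 had 24 and 21 in the hair follicle libraries against 12 and 12 in the interfollicular ones. Of all genes with a region, 14.7% had more open regions in both interfollicular than in both follicle libraries, and 17.1% the reverse. At both Cdh4 and Pcdh7 the net number of regions that set these populations apart shrank among the wider 50% of each library's peaks.

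Cadherins are calcium-dependent adhesion proteins of the cell surface. Classical cadherins bind their like on the neighbouring cell and hold actin through catenins, in adherens junctions. Desmogleins and desmocollins hold keratin filaments through plakoglobin, plakophilins and desmoplakin, in desmosomes, and give the epidermis its mechanical strength. Protocadherins are known best from neurons, and the very large Fat cadherins from planar cell polarity and growth control. E-cadherin and P-cadherin are the classical cadherins of keratinocytes, with P-cadherin in the basal layer and the hair follicle.

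Accessible DNA was mapped by ATAC-seq, an assay in which Tn5 transposase inserts adapters into open chromatin, in keratinocytes sorted from the back skin of C57BL/6 mice at postnatal day 60. All mice carried TNC-CREER, a tamoxifen-dependent Cre driven by the tenascin-C gene, and a tdTomato reporter, and all had tamoxifen at 100 µg per g on days 51 and 52. Touch dome (TD) cells, from the keratinocyte patches that house Merkel cells, were EPCAM+, SCA1+, α6-integrin+ and tdTomato+. Cells of the interfollicular epidermis (IFE) had the same 3 other markers but were tdTomato-, and hair follicle (HF) cells were EPCAM+, α6-integrin+, SCA1- and tdTomato-. The TD group is thus defined by where and when the Tnc-driven Cre acted, and no group is free of Cre, reporter or drug. Each population had 2 libraries of 50000 cells. The labels do not say if these 2 derive from different mice, and their spread may be technical. The files list peaks without heights, so a region is either open (a peak of that library lies in it) or closed. With sorted pools, fewer open cells and less accessible DNA in each cell cannot be told apart.

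The promoters printed next carry the contrast within the family: some were open in every library, some in part of the libraries, and some in none although the gene held many open regions elsewhere. RefSeq's table for GRCm38.p6, the assembly behind mm10, had promoters for 26 of the 48 genes, as 29 windows of 250 bases before and 50 after the start. The other 22 genes, among them Cdh1, Cdh3, Cdh4, Pcdh1 and all Dsc and Dsg genes, had no entry. The promoter shares given here do not cover them. Of the 29 windows 5 had a peak in all 6 libraries (17.2%, against 51.1% of 21263 promoters of protein-coding genes), 7 in 1 to 5 libraries and 17 in none. The 250 bases before the start are shown 5′ to 3′ on the gene's own strand, with each CG dinucleotide in capitals. The first 3, of Pcdh7 (chr5:57717831-57718080, plus strand), Pcdh10 (chr3:45378148-45378397, plus) and Pcdh17 (chr14:84443313-84443562, plus), were open in all 6 libraries. Pcdh8 (chr14:79771313-79771562, minus) and Pcdh18 (chr3:49757317-49757566, minus) were open in 5. Fat2 (chr11:55312258-55312507, minus) and Cdh23 (chr10:60696491-60696740, minus) were open in none.
Pcdh7: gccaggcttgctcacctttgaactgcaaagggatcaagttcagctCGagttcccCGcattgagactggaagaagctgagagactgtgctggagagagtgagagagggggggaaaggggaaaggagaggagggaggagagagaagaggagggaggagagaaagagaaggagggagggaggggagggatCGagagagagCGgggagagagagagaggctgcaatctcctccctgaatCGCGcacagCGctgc
Pcdh10: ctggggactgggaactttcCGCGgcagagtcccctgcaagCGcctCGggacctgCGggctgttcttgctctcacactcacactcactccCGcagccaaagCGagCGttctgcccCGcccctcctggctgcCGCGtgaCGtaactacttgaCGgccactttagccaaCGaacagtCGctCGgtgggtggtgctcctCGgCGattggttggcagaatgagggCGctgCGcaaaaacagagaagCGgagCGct
Pcdh17: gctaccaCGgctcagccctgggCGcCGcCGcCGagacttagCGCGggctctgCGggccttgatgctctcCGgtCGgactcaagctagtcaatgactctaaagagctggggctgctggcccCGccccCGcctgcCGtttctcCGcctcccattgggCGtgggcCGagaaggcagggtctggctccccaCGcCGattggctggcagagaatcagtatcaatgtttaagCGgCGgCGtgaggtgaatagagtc
Pcdh8: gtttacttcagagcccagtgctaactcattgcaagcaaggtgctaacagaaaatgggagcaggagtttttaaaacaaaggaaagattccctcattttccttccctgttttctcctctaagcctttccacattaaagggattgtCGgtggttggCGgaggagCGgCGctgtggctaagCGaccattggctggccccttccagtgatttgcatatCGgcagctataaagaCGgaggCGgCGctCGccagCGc
Pcdh18: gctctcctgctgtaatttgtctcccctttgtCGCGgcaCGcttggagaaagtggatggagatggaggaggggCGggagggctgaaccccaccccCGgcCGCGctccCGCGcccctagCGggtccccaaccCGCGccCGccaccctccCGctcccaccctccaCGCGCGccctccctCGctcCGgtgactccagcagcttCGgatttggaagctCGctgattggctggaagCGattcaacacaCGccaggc
Fat2: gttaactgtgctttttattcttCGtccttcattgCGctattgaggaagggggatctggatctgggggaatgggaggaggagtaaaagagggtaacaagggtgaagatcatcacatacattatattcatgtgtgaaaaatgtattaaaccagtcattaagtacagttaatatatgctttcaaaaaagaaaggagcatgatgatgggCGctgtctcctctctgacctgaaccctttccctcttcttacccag
Cdh23: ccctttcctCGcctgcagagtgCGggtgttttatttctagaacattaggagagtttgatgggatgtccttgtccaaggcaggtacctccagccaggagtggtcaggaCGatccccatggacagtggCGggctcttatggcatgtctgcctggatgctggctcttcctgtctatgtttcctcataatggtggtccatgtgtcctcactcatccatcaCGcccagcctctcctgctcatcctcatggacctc

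The sequences differ in how many CG dinucleotides they hold. Pcdh7 has 7, Pcdh10 has 22 and Pcdh17 has 21. Pcdh18, with 23, was as rich as these, and Pcdh8 has 11. Fat2 has 3 and Cdh23 has 5. The median was 21 in the 5 member promoters open in all libraries, 11 in the 7 open in some and 6 in the 17 open in none, beside 17 in all protein-coding promoters open in 6 and 3 in those open in none. Richness alone did not order the members: Cdh22 has 30 and Fat3 27, and neither window had a peak in any library. The other member promoters open throughout were those of Pcdh19 and Cdh24, and all 5 were covered by peaks over the whole 300 bases in each library.

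Promoters open in part of the libraries belonged to delta protocadherins, the group with conserved cytoplasmic motifs, and to 3 other genes. At Pcdh8, an adhesion protein of neural tissue, peaks covered 16 and 300 of the 300 bases in TD, 244 and 0 in IFE, and 300 and 300 in HF. At Pcdh18 they covered 188 and 300 in TD, 0 and 100 in IFE, and 276 and 190 in HF. IFE and TD overlapped at Pcdh8, and both IFE libraries lay below the others at Pcdh18. In each case 1 IFE library had a peak, so neither met the rule of a region open in both libraries of 1 population and in none of another. The Pcdh9 promoter, with 2 windows that overlap, was covered whole in 5 libraries and had no peak in IFE replicate 2. Pcdh20, Fat4 and Cdh9 had partial cover in 5, 3 and 1 libraries.

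Short motifs were counted on both strands of the 250 bases, as letters only. Cdh1 and the desmosomal cadherins, which had no promoter entry, were not among the genes counted. The E-box CANNTG stood in 51.7% of the 29 member windows and in 62.8% of protein-coding promoters. Its form CACCTG, part of the same count and the E-cadherin repressors' known motif, stood in 13.8% and 16.9%. CCAAT was in 51.7% of member windows against 35.4%, GGGCGG in 31.0% against 42.6%, TATAAA in 6.90% against 11.6%, and the AP-1 motif TGANTCA in 0 of 29 against 6.13%. Genes with several windows count several times, among them Pcdh9, whose overlapping windows each hold CCAAT.

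Each library listed between 50153 and 59250 peaks. Read depth is not given in the sources used here, so no interval from counting can be attached to a call. Of the 248 cadherin regions, 138 and 186 were open in the TD libraries, 164 and 158 in those of IFE, and 171 and 169 in those of HF. These are 65.3% ± 13.7 (SD, n = 2), 64.9% ± 1.71 and 68.5% ± 0.570 of the regions. TD replicate 1 was the lowest library of all, and TD replicate 2 the highest, both for cadherin regions and for all regions at genes (66.5% and 78.4% open), so a TD level lies between 2 unlike libraries. TD minus IFE was 0.403 percentage points (exact two-sided permutation p = 1) and TD minus HF -3.23 (exact p = 1). IFE minus HF was -3.63, with both HF libraries above both IFE libraries, at an exact p of 0.333, the smallest that 2 libraries against 2 allow. It turned to 3.08 when each list was shortened to the same number of its widest peaks and to 3.95 among the wider 50% of each list. No difference could therefore pass 0.05 in this design. Over all regions at genes the same difference was -3.66 points. Leaving out TD replicate 1 turned TD minus HF to 6.45, and leaving out TD replicate 2 or IFE replicate 2 turned TD minus IFE to -9.27 or -0.806.

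Cadherin regions were more often closed somewhere than regions at other genes. Of the 248, 90 were open in all 6 libraries (36.3%, against 48.2% of all regions at genes). The family's regions lay away from gene ends: 185 overlapped the gene's own span (74.6% against 69.5%), and 29 lay within 1 kb of an end (11.7% against 21.0%). Within 1 kb of an end, 79.3% of member regions were open in all 6 libraries, beside 82.7% of all. Farther away the shares were 30.6% and 39.0%. Another 97 regions (39.1%, against 33.5%) had unlike states in the 2 libraries of some population. Such a region counts in a comparison below where its 2 libraries were alike in both populations compared.

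Regions open in both libraries of 1 population and in neither library of another were counted for each pair. The same share over all 62802 regions at genes is the background. Against IFE, TD had 11 such regions (4.44%, background 4.48%), and IFE had 9 against TD (3.63%, background 1.82%). Between TD and HF, 25 were open in TD (10.1%, background 8.02%) and 28 in HF (11.3%, background 7.26%). Between IFE and HF, 31 were open in IFE (12.5%, background 9.91%) and 35 in HF (14.1%, background 12.8%). The shares in TD against IFE and in HF against IFE lay near the background. Since cadherin regions lay less often within 1 kb of a gene end, the shares were also taken over regions farther away. In the order given, these were 5.02%, 4.11%, 11.4%, 12.3%, 14.2% and 15.5%. Over all such regions they were 5.41%, 2.15%, 9.53%, 8.68%, 11.8% and 15.4%. Without Cdh4 and Pcdh7 the 6 counts, in the order given, were 8, 3, 21, 20, 21 and 23 of 208 regions, or 3.85%, 1.44%, 10.1%, 9.62%, 10.1% and 11.1%. The shares of IFE against TD and IFE against HF then no longer stood above their backgrounds by more than 0.2 points, while that of TD against HF was as before. With 1 library left out the rule asks less of that population, so a count can then only stay or rise. Without TD replicate 1 there were 34 regions of TD against IFE (13.7%, all regions 10.8%) and 44 of TD against HF (17.7%, all regions 13.8%). Without TD replicate 2 there were 25 of IFE against TD (10.1%, all regions 6.52%) and 48 of HF against TD (19.4%, all regions 13.5%). The 9 regions of IFE against TD became 16 (6.45%, all regions 3.46%) without IFE replicate 1 and 17 (6.85%, all regions 4.998%) without IFE replicate 2. Between IFE and HF, the 31 regions of IFE became 43 (17.3%, all regions 14.1%) without IFE replicate 2. The 35 of HF against IFE became 49 (19.8%, all regions 17.5%) without HF replicate 1. The background thus moved with the cadherin counts. Among the wider 50% of each peak list the 6 counts were 1, 1, 10, 4, 11 and 8.

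**Figure D1:**
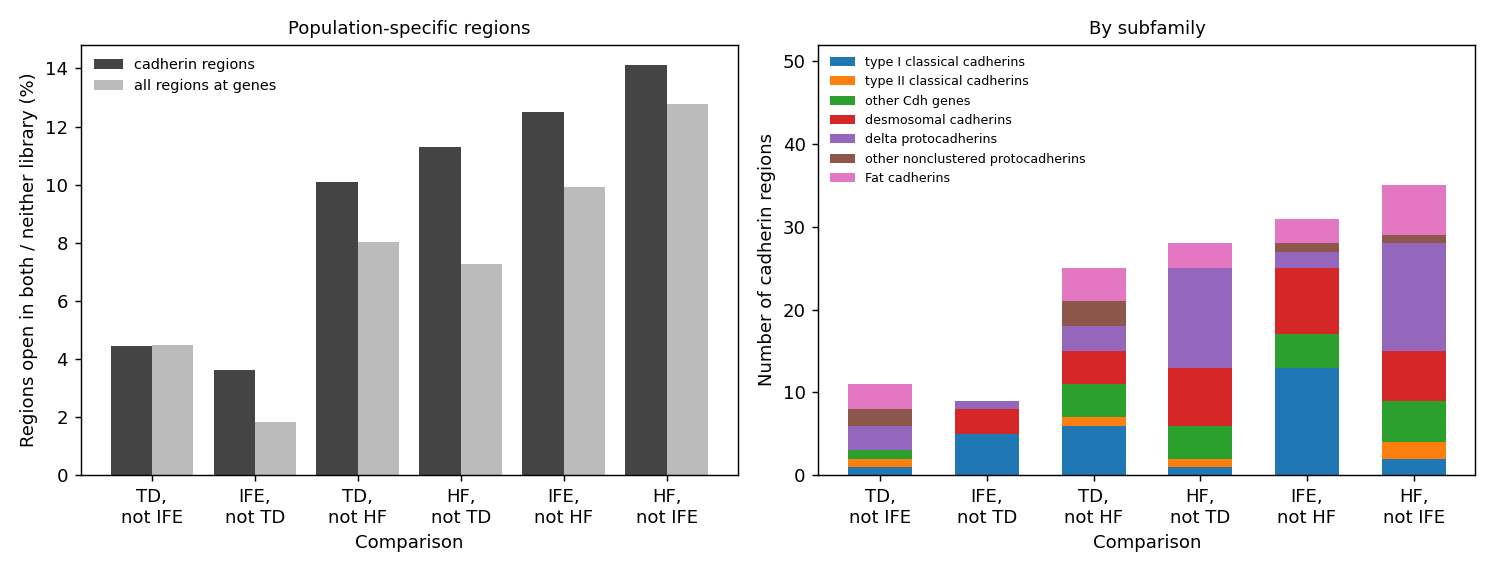
Left, the share (%) of the 248 cadherin regions and of all regions at genes that were open in both libraries of the first population and in neither of the second; right, the number of such cadherin regions by subfamily. HF against IFE had the most cadherin regions, 35, and IFE against HF the most from type I cadherins, 13.

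Open regions were also counted per gene. Genes whose 2 libraries of 1 population both exceeded both libraries of another were counted among the 40 with a region. TD lay above IFE in 4 genes (background 7.97% of 15447 genes), Cdh7, Fat3, Pcdh15 and Pcdh8. IFE lay above TD in 5 (background 3.96%), Cdh4, Dsc1, Dsc2, Dsg1c and Pcdh1. Against HF, TD was higher in 6 (background 12.4%) and lower in 8 (background 11.4%). IFE was above HF in 7 (background 14.7%) and below it in 9 (background 17.1%). As percentages of 40 these 6 counts are 10, 12.5, 15, 20, 17.5 and 22.5. In percentage points, HF above TD and IFE above TD lay farthest from their backgrounds, and they rest on 8 and 5 genes. The cadherin genes with a region had a median of 4.5 regions, against 2 over all genes with a region. The backgrounds are not matched for this, and its part in the shares was not tested.

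**Figure D2:**
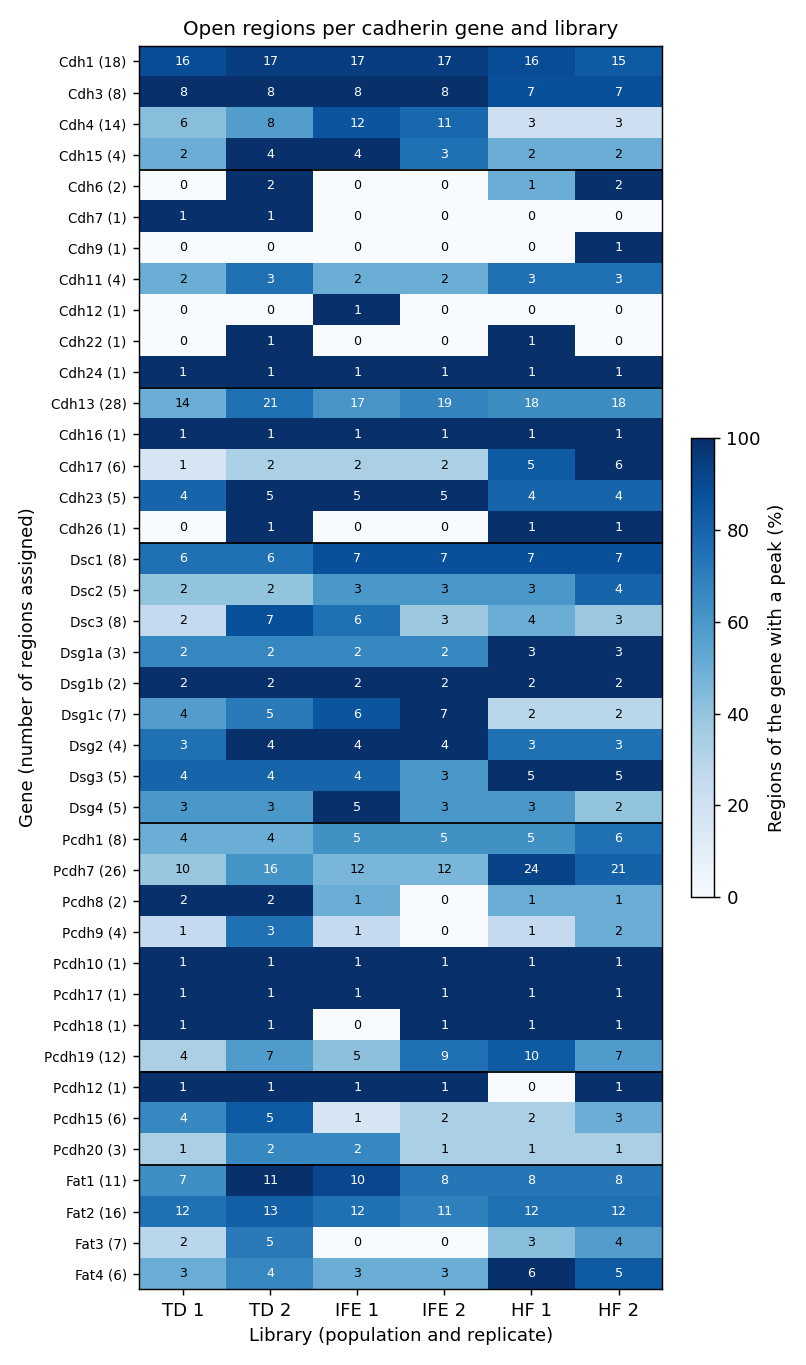
Number of open regions of each of the 40 cadherin genes (rows, with the number of regions assigned) in each library (columns); the shade is the percentage of the gene's regions with a peak, and lines part the subfamilies. Cdh4 is dark in the IFE columns and pale in HF, Pcdh7 is dark in HF, and Fat3 has no open region in IFE.

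Type I classical cadherins, which bind catenins and form adherens junctions, had 44 regions at 4 of 5 genes, 21 of them open in all 6 libraries. Cdh2, the N-cadherin of neural and mesenchymal cells, had none. Open regions numbered 32 and 37 in TD, 41 and 39 in IFE, and 28 and 27 in HF, so each IFE library lay above every other library, and each HF library below. Of the 13 regions of IFE against HF (29.5%, all regions 9.91%), 10 were at Cdh4.

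Cdh1 and its neighbour Cdh3 lie on chromosome 8 (spans 106603350 to 106670247 and 106510852 to 106556911), and together held 26 regions, 18 of them open in all libraries. Cdh1 had 18 regions, with 16 and 17 open in TD, 17 and 17 in IFE, and 16 and 15 in HF. TD overlapped both other populations, while both IFE libraries lay above both HF libraries. The open regions were not always the same: 11 of the 18 were open in all libraries, and TD replicate 1 and HF replicate 2 differed at 5. A single region within the gene, chr8:106610732-106611331, 7382 bp from its lower-coordinate end, was open in all TD and IFE libraries and in neither HF library. Cdh3 was open at all 8 regions in TD and IFE and at 7 in HF. The region that HF lacked, chr8:106503679-106504702, lies 6150 bp outside the gene, and the 7 others were open in all libraries.

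Cdh4, a cadherin studied mainly in retina, brain and kidney, had 14 regions, all within its span on chromosome 2 (179442423 to 179899377). Open regions numbered 6 and 8 in TD, 12 and 11 in IFE, and 3 and 3 in HF. The 3 populations did not overlap, with IFE highest and HF lowest, an order not counted over all genes. The single region open in all 6 libraries lay at the gene's lower-coordinate end and was called over 1602 and 1380 bp in TD, 1500 and 1544 in IFE, and 1434 and 1374 in HF. Within the gene, 5 regions were open in IFE alone, among them chr2:179873319-179873672 and chr2:179705572-179706359, which lie nearest a gene end. Another 4 were open in TD and IFE but not HF, and 1 was open in TD and HF but not IFE. Net of the opposite direction, Cdh4 had 8 more regions of IFE against HF, 4 more of IFE against TD and 4 more of TD against HF. Each library left out gave 8 or 9, 3 to 5 and 3 to 5. Among the wider 50% of peaks the 3 values were 1, 0 and 1, and when each list was shortened to the same number of its widest peaks 4 became 2 for IFE against TD. Cdh15, the M-cadherin of muscle, had 4 regions, with 2 and 4 open in TD, 4 and 3 in IFE, and 2 and 2 in HF.

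**Figure D3:**
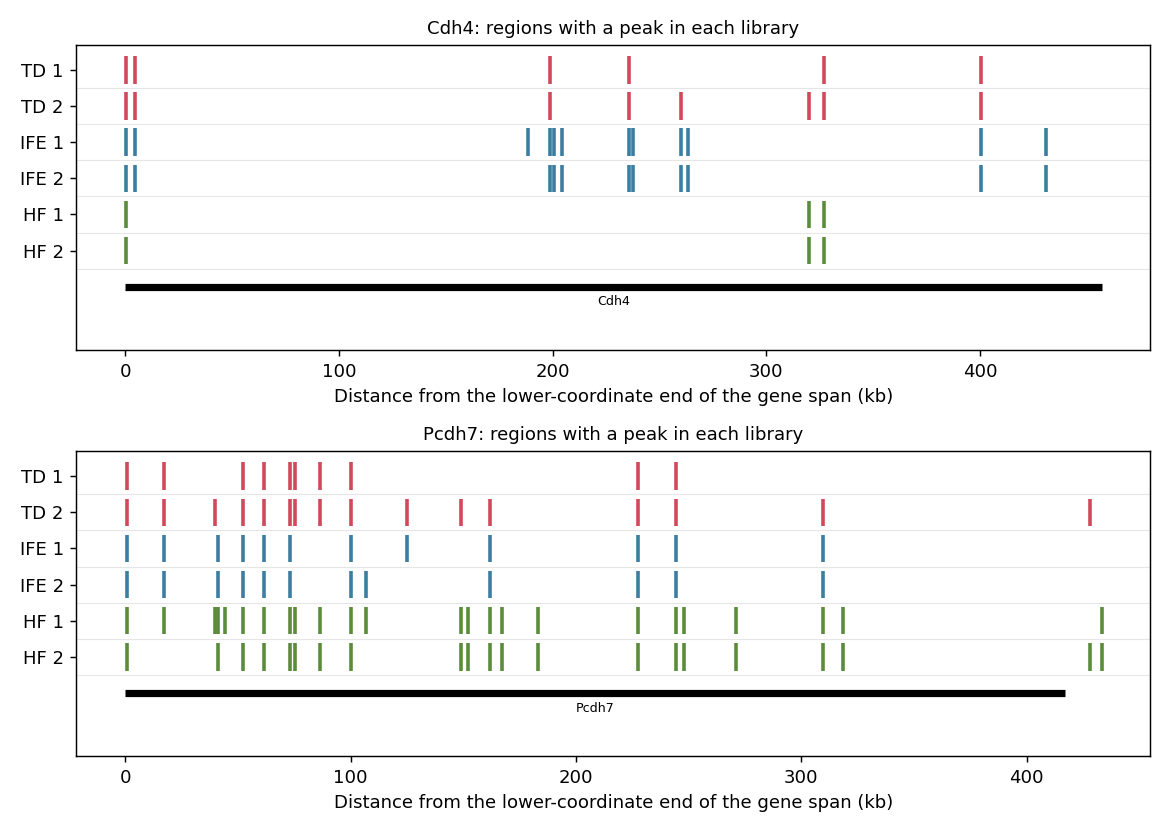
Positions of the open regions of Cdh4 (top) and Pcdh7 (bottom) in each library, in kb from the lower-coordinate end of the gene span (black bar); each mark stands at the centre of a region and its width is not to scale. Cdh4 has 12 and 11 marks in IFE and 3 in each HF library, and Pcdh7 has 24 and 21 in HF against 12 and 12 in IFE.

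Desmosomal cadherins lie side by side on chromosome 18, with 47 regions at all 9 genes, 21 of them open in all 6 libraries. Open regions numbered 28 and 35 in TD, 39 and 34 in IFE, and 32 and 31 in HF, and the IFE and HF libraries did not overlap. Against HF, IFE had 8 specific regions (17.0%, all regions 9.91%), and HF had 6 against IFE (12.8%, the same as all regions). TD had 4 against HF (8.51%, all regions 8.02%), and HF had 7 against TD (14.9%, all regions 7.26%). TD had 0 against IFE, and IFE had 3 against TD (6.38%, all regions 1.82%). Dsg1a, Dsg1b and Dsg1c are near-identical copies, so how the authors' alignment shared reads among them bears on each of their values and was not tested.

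Dsg1c, a copy of desmoglein 1, the desmoglein of the upper epidermis, had the most regions of IFE against HF among these genes. It was open at 4 and 5 of its 7 regions in TD, 6 and 7 in IFE, and 2 and 2 in HF, with no overlap between populations. Of its regions 5 were specific to IFE against HF and 3 to TD against HF. A region within the gene, chr18:20248551-20249047, 1211 bp from its end, was open in IFE alone. The other 6 lay 9552 to 45716 bp outside the span, and with a window of 10 kb the net count of IFE against HF was 2 instead of 5, as it was among the wider 50% of peaks. Dsg1a and Dsg1b were open at fewer sites. Dsg1a had 2 of 3 regions open in each TD and IFE library and 3 in each HF library, the added one being chr18:20315088-20315547, 4215 bp inside the gene. Dsg1b had 2 regions, open in all libraries.

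The other desmogleins and the desmocollins were open throughout at some sites and differed at single ones. Dsg3, the desmoglein of the basal epidermis, was open at 4 and 4 of 5 regions in TD, 4 and 3 in IFE, and 5 and 5 in HF. Both HF libraries thus lay above the others, by chr18:20505832-20506713, 3561 bp outside the gene. Dsg2, found in simple and proliferating epithelia, had 3 and 4 of 4 in TD, 4 and 4 in IFE, and 3 and 3 in HF. Dsg4, a desmoglein of the hair shaft, had 3 and 3 of 5 in TD, 5 and 3 in IFE, and 3 and 2 in HF, and no region specific to a population. The HF population thus showed no excess at this hair gene. Dsc1, the desmocollin of the upper epidermis, had 6 and 6 of 8 in TD and 7 in each IFE and HF library. Dsc2, the widely expressed desmocollin, had 2 and 2 of 5 in TD, 3 and 3 in IFE, and 3 and 4 in HF. At Dsc2, chr18:20026780-20027169, 3464 bp outside the gene, was open in IFE alone, and 2 regions within the gene were open in HF alone. Dsc3, the basal desmocollin, was unlike between replicates, with 2 and 7 of 8 in TD, 6 and 3 in IFE, and 4 and 3 in HF.

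**Figure D4:**
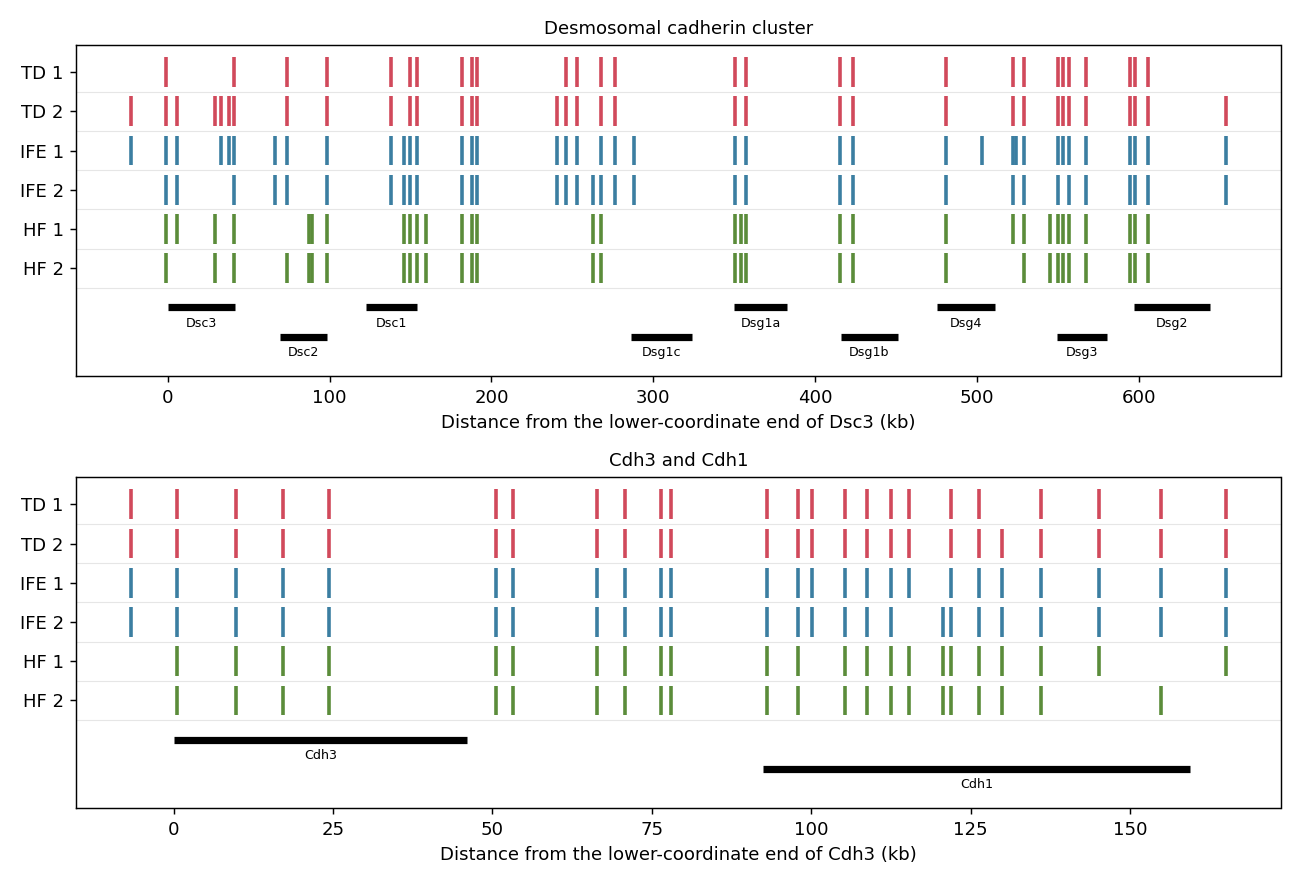
Positions of open regions in each library along the desmosomal cadherin cluster (top) and along Cdh3 and Cdh1 (bottom), in kb from the lower-coordinate end of Dsc3 or Cdh3; black bars are gene spans, and marks stand at region centres with a width not to scale. HF lacks marks beside Dsg1c that TD and IFE have, and 18 of the 26 regions of Cdh3 and Cdh1 carry a mark in every library.

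In regions open in all 6 libraries, the length covered by peaks gave a further readout. Peak length depends on the caller and on depth, which is unknown. Of the 90 such cadherin regions, 29 were called longer in both TD than in both HF libraries (32.2%, background 28.6% of 30263 regions) and 17 the other way (18.9%, background 20.3%). Between IFE and HF the counts were 35 (38.9%, background 37.9%) and 17 (18.9%, background 22.2%). The family as a whole was thus near the background. Among its 21 desmosomal regions 13 were longer in TD and 1 in HF (backgrounds 28.6% and 20.3%). In the comparison of IFE and HF, 14 were longer in IFE and 1 in HF (backgrounds 37.9% and 22.2%). Beside the same backgrounds, 1 of the 14 regions of delta protocadherins was longer in TD and 7 in HF. Of these 14, 2 were longer in IFE and 5 in HF.

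At the gene end of Dsg1b the called length was 2164 and 2519 bp in TD, 2708 and 2713 in IFE, and 1647 and 1576 in HF. Neither other population overlapped HF. HF was lowest at Dsg1a too, with 1893 and 2622 bp in TD, 3118 and 2485 in IFE, and 1425 and 1479 in HF. At Dsg3 it was 2509 and 2925 bp in TD, 3155 and 2976 in IFE, and 2430 and 1890 in HF. These 3 gene ends, and the higher-coordinate end of Dsc3 (1454 and 1435 bp in HF, 1470 to 1688 elsewhere), were shorter in both HF libraries than in the other 4. Of all 30263 regions open throughout, 28.6% were longer in TD than in HF and 37.9% longer in IFE than in HF. The share shorter in HF than in all other libraries was not counted. The other desmosomal gene ends were not shorter in HF than in all other libraries. At Dsc2 HF, with 716 and 883 bp, lay above TD, with 653 and 607, and overlapped IFE, with 809 and 690. At Dsg2 the HF libraries had 1137 and 953 bp, at Dsc1 813 and 1119, and at the lower-coordinate end of Dsc3 1623 and 1647, all overlapping TD. At Cdh1 it was 1768 and 1893 bp in TD, 1861 and 1830 in IFE, and 2022 and 1850 in HF, with the populations overlapping. At Cdh3, 1555 and 1989 bp were called in TD, 1816 and 1819 in IFE, and 1544 and 1605 in HF, and IFE alone lay wholly above HF.

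**Figure D5:**
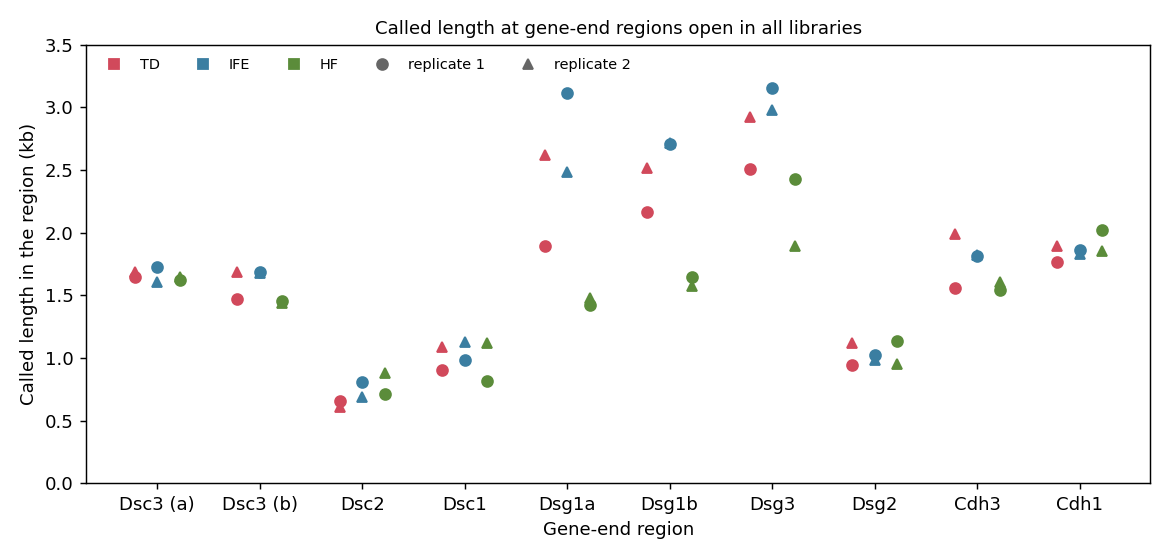
Length covered by peaks (kb) at regions within 1 kb of a gene end that were open in all 6 libraries, for desmosomal cadherins, Cdh3 and Cdh1; circles are replicate 1, triangles replicate 2, and colours the populations. Dsc3 (a) and (b) are the gene's lower- and higher-coordinate ends. At Dsg1a, Dsg1b and Dsg3 both HF points lie below the TD and IFE points.

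Type II classical cadherins, expressed mainly in nerve, vessel and mesenchyme, were nearly closed. Of 13 genes 7 had a region, 11 regions in all, with 4 and 8 open in TD, 4 and 3 in IFE, and 6 and 7 in HF. Cdh5, the VE-cadherin of endothelium, had none, as had Cdh8, Cdh10, Cdh18, Cdh19 and Cdh20. Cdh7 had a single region, chr1:110151519-110152165, 6247 bp outside the gene, open in both TD libraries and in no other. Cdh11, the cadherin of mesenchyme and bone, had 2 and 3 of 4 regions open in TD, 2 and 2 in IFE, and 3 and 3 in HF. Its region chr8:102784145-102785088, 405 bp inside the gene from its higher-coordinate end, was open in HF alone. No other cadherin region within 1 kb of a gene end was specific to a population. Cdh24 was open at its 1 region in all libraries, and Cdh6, Cdh9, Cdh12 and Cdh22 had 1 or 2 regions open in 1 to 3 libraries. Beside Cdh11, markers of fibroblasts had more open regions in HF: of the 14 regions at 4 of 5 such genes, 8 and 10 were open in TD, 5 and 3 in IFE, and 14 and 13 in HF. The Col3a1 region was open in both HF libraries and no other, and Lum had no region. Their part in the result was not tested.

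The remaining Cdh genes held 41 regions at all 5 genes. Cdh13 encodes T-cadherin, which is held by a lipid anchor and lacks a cytoplasmic tail. It had 28 regions, more than any other member, within a span from 118140017 to 119324929 on chromosome 8, with 14 and 21 open in TD, 17 and 19 in IFE, and 18 and 18 in HF. The 3 populations overlapped, and 9 regions were open in all libraries. Cdh17, the intestinal LI-cadherin, had 6 regions, with 1 and 2 open in TD, 2 and 2 in IFE, and 5 and 6 in HF. HF was above both other populations there, by 3 regions outside the gene, the nearest of them chr4:11822656-11823320 at 4751 bp. Cdh23, a component of the tip links of hair cells in the ear, was open at 4 and 5 of 5 regions in TD, 5 and 5 in IFE, and 4 and 4 in HF. Another 7 regions overlapping the Cdh23 span were given to genes that lie within it, 6 to Vsir and 1 to Gm17455. Cdh16 had 1 region, open in all libraries, and Cdh26 had 1, open in TD replicate 2 and both HF libraries.

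Delta protocadherins had 55 regions at 8 of 9 genes, with 24 and 35 open in TD, 26 and 29 in IFE, and 44 and 40 in HF. Each HF library lay above every other library. HF had 12 specific regions against TD (21.8%, all regions 7.26%) and 13 against IFE (23.6%, all regions 12.8%). Against HF, TD had 3 (5.45%, all regions 8.02%) and IFE 2 (3.64%, all regions 9.91%). Most of the HF regions were at Pcdh7, a protocadherin on chromosome 5 (57716145 to 58133236). Of its 26 regions 10 and 16 were open in TD, 12 and 12 in IFE, and 24 and 21 in HF, so HF lay above both others without overlap. The region at its lower-coordinate end, which holds the promoter printed above, was 3995 bp wide and open in all libraries, over 3753 and 3982 bp in TD, 3800 and 3775 in IFE, and 3900 and 3920 in HF. What differed lay farther in: 7 regions were open in HF alone, 6 of them within the gene and 1 at 15808 bp outside it. Net counts were 10 regions of HF against IFE and 8 of HF against TD. Each library left out gave 9 to 12 and 7 to 11, equal numbers of the widest peaks gave 6 and 5, and the wider 50% of peaks gave 0 and 0. Beside them, the 36 regions of endothelial and mural marker genes had 17 and 20 open in TD, 20 and 21 in IFE, and 30 and 30 in HF. Most of this difference was at Erg, with 5 and 6 of 15 open in TD, 5 and 5 in IFE, and 13 and 14 in HF. Tek had 2 and 3 of 8 in TD, 2 and 5 in IFE, and 6 and 5 in HF. Pecam1 did not share it, with 10 and 11 of 13 in TD, 13 and 11 in IFE, and 11 and 11 in HF. Of these markers Kdr, Pdgfrb and Rgs5 had no region. The HF marker genes Lhx2, Sox9, Lgr5, Cd34 and Krt15 had 30 and 36 of 48 regions open in TD, 22 and 22 in IFE, and 42 and 44 in HF. The part of other cells in the Pcdh7 counts was not tested.

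The other delta protocadherins had fewer regions. Pcdh19, an adhesion protein of neurons on the X chromosome, had 12, with 4 and 7 open in TD, 5 and 9 in IFE, and 10 and 7 in HF, and the populations overlapped. Pcdh1, a protocadherin of airway and skin epithelium, had 4 and 4 of 8 in TD, 5 and 5 in IFE, and 5 and 6 in HF. Pcdh10 and Pcdh17 each had 1 region, at the promoters printed above, open in all libraries. Pcdh8 had 2 and 2 of 2 in TD, 1 and 0 in IFE, and 1 and 1 in HF. The region that set TD apart, chr14:79728598-79729366, lies 37406 bp outside the gene and was open in TD alone.

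Pcdh15, which pairs with Cdh23 in the tip link, had 6 regions, with 4 and 5 open in TD, 1 and 2 in IFE, and 2 and 3 in HF. TD lay above both others without overlap. Of the 6 cadherin regions open in TD alone 2 were here, chr10:74643590-74644629, 5202 bp inside the gene from its higher-coordinate end, and chr10:74676307-74676752, 26476 bp outside. Cdh23 itself did not share this order. The 6 were spread over 5 genes, the others being Cdh7, Cdh13, Fat3 and Pcdh8. They are 2.42% of the cadherin regions, against 0.967% of all regions at genes. Regions open in IFE alone made up 2.82% against 1.22%, and those open in HF alone 9.27% against 6.22%. Pcdh12, of endothelium, and Pcdh20 had 1 and 3 regions and none specific to a population in both libraries.

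Fat cadherins had 40 regions at all 4 genes, 16 of them open in all libraries, and 24 and 33 open in TD, 25 and 22 in IFE, and 29 and 29 in HF. Fat1, which acts on actin and growth control in epithelia, had 7 and 11 of 11 in TD, 10 and 8 in IFE, and 8 and 8 in HF. Fat2, found in keratinocytes, had 12 and 13 of 16 in TD, 12 and 11 in IFE, and 12 and 12 in HF. These totals overlap, yet 8 of its regions were open in all libraries, 2 were open in TD and IFE but not HF, and 1 in HF alone. Its closed promoter window printed above lies within the span, while a region 112 bp inside the span's higher-coordinate end was open in all 6 libraries. Fat3, known from retina and muscle, had no open region in IFE, with 2 and 5 of 7 in TD and 3 and 4 in HF. All 7 lay within the gene, 64870 bp or more from either end. Fat4, a receptor of planar polarity that pairs with Dchs1, had 3 and 4 of 6 in TD, 3 and 3 in IFE, and 6 and 5 in HF, with HF above both others.

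Window width set membership at the edge. The farthest regions taken in were 2 at Pcdh19, 49564 and 46171 bp from the gene, then Dsg1c at 45716 bp and Pcdh19 at 41170 bp. The nearest left out were at Pcdh8, 50270 bp away, at Fat1, 55509 bp, and at Dsg1c, 55831 and 57534 bp, the last 2 open in all libraries.

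Genes that act with cadherins were taken from lists of 38 genes, of which 34 had a region. The 9 genes of the catenin and adherens junction plaque had 73 regions. Of these 6 were specific to TD against IFE (8.22%, all regions 4.48%) and 1 to IFE against TD (1.37%, all regions 1.82%). Another 5 stood for TD against HF (6.85%, all regions 8.02%) and 3 for HF against TD (4.11%, all regions 7.26%). Between IFE and HF there were 11 each way (15.1%, all regions 9.91% in IFE and 12.8% in HF). Ctnnd1 (p120-catenin, which steadies cadherins at the membrane) had 7 and 8 of 8 open in TD, 8 and 8 in IFE, and 5 and 5 in HF. Arvcf, a relative of p120, went the other way, with 5 and 5 of 8 in TD, 4 and 4 in IFE, and 7 and 7 in HF. The 9 genes of the desmosomal plaque had 75 regions, 46 of them open in all libraries. They had 2 each way between TD and IFE (2.67%), 7 of TD against HF (9.33%) and 4 of HF against TD (5.33%), within 2 points of all regions. Between IFE and HF there were 6 each way (8%, all regions 9.91% in IFE and 12.8% in HF). Jup (plakoglobin) had 8 and 8 of 10 in TD, 8 and 7 in IFE, and 5 and 6 in HF. The counts of the plaque list were equal between IFE and HF, although Jup, a gene of that list, had fewer open regions in HF.

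Other members of the superfamily had 62 regions at 11 of 14 genes, with 6 of IFE against HF (9.68%, all regions 9.91%) and 10 of HF against IFE (16.1%, all regions 12.8%). Clstn2, a calsyntenin of synapses, had 0 of 5 open in TD and IFE and 4 and 4 in HF. Repressors of E-cadherin transcription had 16 regions at 5 of 6 genes, with 7 open in each TD and IFE library, and 10 and 11 in HF. Zeb1 had 2 and 2 of 4 in TD, 1 and 1 in IFE, and 4 and 3 in HF, and Twist2 had 0 of 2 in TD and IFE and 1 and 2 in HF. Snai2 had 2 and 2 of 3 in TD, 3 and 2 in IFE, and 1 and 1 in HF, so the repressors did not lean 1 way together.

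Marker genes were examined beside the labels. At Tnc, which drives the Cre, 17 and 17 of 17 regions were open in TD, 11 and 11 in IFE, and 13 and 12 in HF. At Ly6a, the gene of SCA1, 4 and 4 of 5 were open in TD, 5 and 5 in IFE, and 2 and 2 in HF. TD was thus highest at Tnc, and the SCA1- HF cells lowest at Ly6a. Keratinocyte genes (Krt5, Krt14, Epcam, Itga6 and Trp63) had 73 regions, with 47 to 61 open in each library. All populations were sorted as α6-integrin+, yet its gene Itga6 differed. Of its 23 regions 14 and 14 were open in TD, 20 and 15 in IFE, and 9 and 9 in HF. Krt14 went the other way, with 4 and 5 of 6 in TD, 4 and 5 in IFE, and 6 and 6 in HF. The HF marker regions given beside Pcdh7 were most open in HF. The 6 Merkel cell genes had 7 regions and none specific to a population, and Krt20 was open in IFE replicate 1 alone. Of the 6 regions of immune genes, 6 and 6 were open in TD, 5 and 5 in IFE, and 2 and 2 in HF. Melanocyte genes had 18 and 23 of 27 in TD, 14 and 15 in IFE, and 22 and 23 in HF, with no region at Kit or Tyr. Schwann cell genes had 10 to 13 of 14 open in each library.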

How the data were processed

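The deposited data were 6 peak lists, 1 per library, with chromosome, start, end and name in 4 columns and no score, per the file contents. The submitters' processing notes name MACS2 2.2.7.1, Bowtie2 2.4.5, Trim Galore 0.6.7 and SAMtools 1.9, with build mm10. Not given in the sources used here are the peak threshold, read filters, any shift for the transposase cut and the depth, and a deeper library can gain weak peaks. Coordinates are printed counted from 1.

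Peaks of all libraries sharing at least 1 bp were joined into regions with Python 3.11.15, pandas 2.3.3 and NumPy 2.4.6, and a region was open in a library with a peak in it. Each region went to the nearest of 21887 protein-coding spans within 50 kb (RefSeq, GRCm38.p6). The gene table has no strand, so gene ends are not transcription starts. Pcdh11x was kept under its suffix letter. The steps were tested on simulated peaks. Promoter strand was checked on 1913 overlapping windows of opposite strand, and 1913 were reverse complements.

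The exact two-sided permutation test ran over libraries. The members, lists and rules were chosen with earlier results of these data known. Values in every library are given for Cdh1, Cdh3, desmosomal and Fat genes and for genes with at least 4 specific regions in a comparison, and coordinates for at most 4 regions open in 1 population alone, nearest a gene end. Other genes and coordinates named, the printed promoters among them, were chosen after their values were seen. Other settings were windows of 10 and 100 kb, peak cover of 50%, merging within 100 bp, the wider 50% of peaks, equal numbers of the widest peaks and each library left out.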

Additional observations from a re-analysis of the deposited data

How the results depend on the processing

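Of the region counts, all 6 stayed within 1.5 times with windows of 10 or 100 kb, 50% peak cover, merging within 100 bp and each list shortened to the same number of its widest peaks. In the last setting some orders turned, however. TD against IFE and IFE against TD went from 11 and 9 to 8 and 10. IFE against HF and HF against IFE went from 31 and 35 to 31 and 24. Among the wider 50% of peaks fewer peaks were kept, and the 6 counts were lower, of 114 regions. They were 1 (TD against IFE), 1 (IFE against TD), 10 (TD against HF), 4 (HF against TD), 11 (IFE against HF) and 8 (HF against IFE). Their shares of the regions fell too, as given above. Leaving out 1 library can only keep or raise a count. The 6 counts then ran from 11 to 34, 11 to 25, 25 to 44, 30 to 48, 34 to 43 and 41 to 49. Without Cdh4 and Pcdh7, a setting chosen after seeing the data, IFE against TD fell to 3 and HF against IFE to 23.

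The difference in the percentage of open regions, TD minus IFE, was -1.41 with 50% cover and -5.51 with lists of equal length, and ran from -9.27 to 10.1 with a library left out. TD minus HF was 7.46 among the wider 50% of peaks and ran from -12.9 to 6.45. IFE minus HF was 3.95 among the wider 50% and 3.08 with lists of equal length, and ran from -4.84 to -2.42. The cause of these reversals was not tested. No setting could bring any of the 3 below an exact p of 0.333.

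With the replicate number as a block, the differences are 0.403, -3.23 and -3.63 by construction, and exact sign flips over the 2 pairs gave p of 1, 1 and 0.5. Deviations of same-numbered libraries correlated at 0.0513 (TD and IFE), 0.00492 (TD and HF) and 0.0605 (IFE and HF) over 62802 regions. With 2 libraries in each population, these values cannot tell if same-numbered libraries were prepared together.

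Of 540 values of single genes under other settings, 376 kept theirs, 152 moved and 12 changed sign. The last were the net count at Pcdh7 of TD minus IFE (1 as reported, -1 with 50% cover and -1 without TD replicate 2) and those at Cdh13. There TD minus IFE was -1 among the wider 50%, -2 with lists of equal length and -3 without TD replicate 2, TD minus HF -1 without TD replicate 2 and -1 without HF replicate 1, and IFE minus HF -1 among the wider 50%. Among the wider 50%, Dsc1 gave 1 for TD minus HF, Dsc2 gave 1 and Fat1 -1 for IFE minus HF, and without IFE replicate 2 Dsc3 gave 2 for IFE minus HF.

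Presence calls hold no signal height, and depth is unknown, so a region closed in a library was not detected there, which does not show that it was inaccessible.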
